A study of Mus musculus with 4 samples.

Results

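Nutrient transporters of the solute carrier (SLC) families were examined in small intestine of mice with and without the Cyp3a cluster, a group of neighbouring genes for cytochrome P450 enzymes that oxidise many drugs and steroids. The members were all mouse gene symbols of the 10 families Slc1a, Slc2a, Slc3a, Slc5a, Slc6a, Slc7a, Slc15a, Slc36a, Slc38a and Slc43a, which carry sugars, amino acids and peptides. The reference gene table held 93 such genes, 90 had a probe on the array, and 65 of the 14395 genes tested in all were members. No transporter passed the test between genotypes. The knockout arrays disagreed for many of them. Roles were assigned to the members with earlier results of these data known. Of 18 tested carriers with absorptive roles, 14 were above both wild-type arrays on knockout 1, against 37.9% of all genes. On knockout 2, 7 were below both, against 26.6% of all genes. This split was not shown to be particular to transporters: most brush-border hydrolases and most enterocyte markers were also high on knockout 1. By the median, enterocyte markers were lowest on knockout 2, while carriers and hydrolases on knockout 2 were near wild type 2. Members lay on opposite sides of the wild-type arrays about as often as all genes.

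The 2 genotypes were called wild type and Cyp3a-/- in the labels, and 2 arrays were hybridised for each, from experiments that used different animals. Total RNA of small intestine was read on 1-colour Agilent mouse arrays after Cy3 labelling. The strain, age, sex and diet of the mice, the stretch of intestine taken and whether RNA of several animals was pooled for an array are not given in the sources used here. The design text names the knockout of the whole cluster and no other allele, and no other treatment of either genotype is given. The arrays are called wild type 1 and 2 and knockout 1 and 2 after their replicate numbers. With 2 arrays a genotype, their number limits the precision of every value, and each p-value measures only the spread between these 4 arrays. In bulk RNA of this kind, fewer cells of a type and less RNA per cell cannot be told apart.

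Absorption of a meal runs through the enterocytes, the columnar cells that line the villi. At the brush border, the microvillus membrane that faces the gut lumen, hydrolases cut sugars and peptides, and sodium- or proton-driven carriers take up the products. At the opposite, basolateral membrane, other carriers pass sugars and amino acids on to the blood. Sugars enter through the Slc5a and Slc2a families. Small peptides enter through Slc15a. Free amino acids use many carriers of overlapping specificity, among them heterodimers in which a heavy chain of the Slc3a family holds a light chain of the Slc7a family in the membrane. Other members of the same families serve cells in general, lysosomes, nerve endings or other organs.

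Across the arrays, 55.1% to 64.4% of the 39429 probes were well above background and no spot was saturated. A level is the log2 signal minus that array's own 75th percentile, so 0 is the signal at that percentile. Differences are knockout minus wild type on the log2 scale, and SE is their standard error from limma's fit over all genes. Levels are compared between arrays for 1 gene, never between genes, since probes differ in brightness. Knockout 1 stood apart from the other arrays: over the 65 members its correlation with wild type 1 was 0.925, with wild type 2 was 0.912 and with knockout 2 was 0.890, while wild type 1 and 2 had 0.968 and knockout 2 had 0.973 and 0.970 with the wild-type arrays. These coefficients are across genes of the same arrays and are descriptions. Knockout 1 shared slide 2 with wild type 2, and the other arrays lay on 2 further slides, so the slide is not the same for all arrays.

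Of the 14395 genes tested, 0.0417% (6 genes) were called at an adjusted p under 0.05, all lower in the knockout and all genes of the deleted Cyp3a cluster. Among the 65 transporters limma's test with Benjamini-Hochberg adjustment called 0, with an adjusted p of 1.00 for each. At an unadjusted p under 0.05 it took 1 transporter, Slc15a2, where 0.438% of all genes passed. The difference was positive for 30 members and negative for 35, against 56.2% positive over all genes. The median difference was -0.05, beside 0.04 over all genes. The largest difference in either direction among members was 2.16 for Slc15a2 and -1.65 for Slc38a5.

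The gap between replicates was wide for these genes. The median distance between knockout 1 and knockout 2 was 0.858 on the log2 scale, beside 0.454 over all genes, and between the wild-type arrays it was 0.447, beside 0.304. The knockout arrays lay more than 1 unit apart for 24 members (36.9%), against 19.5% of all genes, and the wild-type arrays for 8 (12.3%), against 5.37%. Both genotypes thus showed more spread in the transporters than over all genes. For 23 members (35.4%) one knockout array lay above both wild-type arrays and the other below both, close to the 32.9% of all genes. Of these, 13 were high in knockout 1 and low in knockout 2, among them Slc5a1, Slc2a2, Slc15a1, Slc3a1, Slc7a9 and Slc6a19. Over all genes 16.3% had that order. The other 10 ran the reverse way, as 16.6% of all genes did, among them Slc2a4 and Slc38a4, the last not well above background on knockout 1. Slc38a2 and Slc1a5 were also counted, though their knockout 2 level was nearly that of wild type 2. These were 1.162 against 1.150 for Slc38a2 and 1.807 against 1.806 for Slc1a5.

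The stretch of 250 bases before the start was taken for 4 members from the RefSeq promoter table of assembly GRCm38.p6, because Slc3a1, Slc7a9 and Slc5a1 moved together on the arrays and Slc15a2 had the largest difference. Capitals mark matches, on either strand, to 5 short motifs of factors active in gut epithelium or of the core promoter. For hepatocyte nuclear factor 1 (HNF1) the letters searched were GTTAAT. For the caudal-type homeobox (CDX) factors they were TTTATNG. For the zinc-finger factors of the GATA family they were AGATAA. For hepatocyte nuclear factor 4 (HNF4) they were CAAAGTC. For the TATA box they were TATAAA. Each line runs 5′ to 3′ on the gene's strand.
Slc3a1, chr17:85028097-85028346, plus strand: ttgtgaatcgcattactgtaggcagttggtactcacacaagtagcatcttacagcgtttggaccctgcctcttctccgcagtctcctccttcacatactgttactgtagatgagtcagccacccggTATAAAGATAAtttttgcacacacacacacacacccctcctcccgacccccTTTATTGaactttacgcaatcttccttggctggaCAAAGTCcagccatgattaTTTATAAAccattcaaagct
Slc7a9, chr7:35448842-35449091, plus strand: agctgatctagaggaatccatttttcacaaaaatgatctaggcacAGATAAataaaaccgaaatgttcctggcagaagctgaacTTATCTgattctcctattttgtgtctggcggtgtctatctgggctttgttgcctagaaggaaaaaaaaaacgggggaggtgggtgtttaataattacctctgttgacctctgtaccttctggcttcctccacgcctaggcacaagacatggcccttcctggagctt
Slc5a1, chr5:33103969-33104218, plus strand: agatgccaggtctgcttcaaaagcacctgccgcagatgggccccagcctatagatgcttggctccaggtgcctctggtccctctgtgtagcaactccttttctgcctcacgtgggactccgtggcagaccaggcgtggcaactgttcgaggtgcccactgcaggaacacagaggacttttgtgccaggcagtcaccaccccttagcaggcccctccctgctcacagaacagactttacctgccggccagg
Slc15a2, chr16:36784963-36785212, minus strand: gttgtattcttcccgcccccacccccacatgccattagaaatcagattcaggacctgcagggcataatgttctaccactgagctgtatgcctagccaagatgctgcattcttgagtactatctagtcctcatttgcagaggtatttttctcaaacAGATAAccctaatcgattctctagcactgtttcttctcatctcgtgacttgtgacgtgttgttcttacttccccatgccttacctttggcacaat
The Slc3a1 window held a CDX motif 73 bases before the start, a GATA motif at 119 and an HNF4 motif at 39, counted to the first base of each match. It also held TATA boxes at 124, 20 and 18 bases. The match at 20 is on the reverse strand and overlaps the one at 18, and the matches at 124 and 119 share 1 base. Slc7a9 had GATA motifs at 205 and, on the reverse strand, at 166, and its second listed start had none of the 5. Slc15a2 had a GATA motif at 95, and the Slc5a1 window held none of these letters.

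Promoters were listed for 69 of the 93 members, with 92 windows of 300 bases (250 before and 50 after each start). By gene, 13.0% of the members held the HNF1 motif, against 8.24% of all 27025 genes in the table. The shares were 7.25% against 12.5% for CDX, 8.70% against 12.7% for GATA and 13.0% against 15.7% for the TATA box. The HNF4 motif was in 2.17% of the members' windows and 4.44% of all windows. A match is a run of letters and not a shown binding site.

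**Figure D1:**
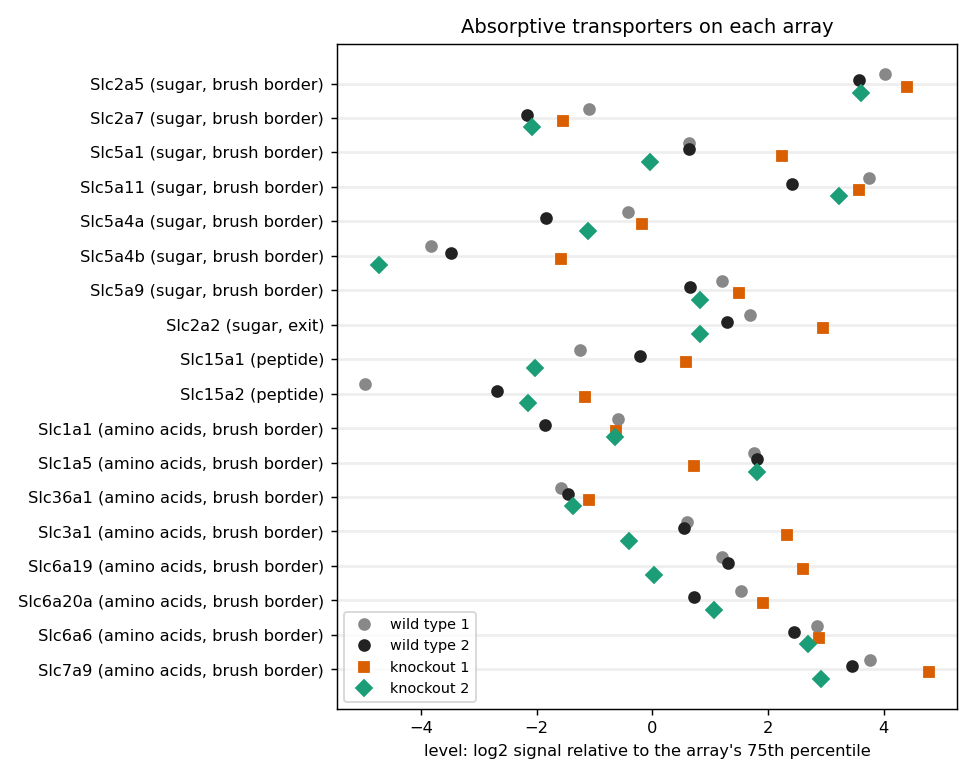
Levels of 18 transporters of absorptive roles on each of the 4 arrays (x axis: log2 signal relative to the array's 75th percentile; 1 point an array, set slightly apart in height). In 14 of the 18, knockout 1 exceeded both wild-type arrays (37.9% of all genes). In 7, knockout 2 was below both (26.6% of all genes).

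Earlier results of these data were known when the roles were assigned. The absorptive roles held 20 members: sugar carriers of the brush border, the sugar exit carrier, the peptide carriers and the amino acid carriers of the brush border. Of these, 18 were tested and 16 had a positive difference, with a median of 0.30 and 0 called. Only Slc15a2 had an unadjusted p under 0.05. Knockout 1 was above both wild-type arrays for 14 of the 18, against 37.9% of all genes, and below both for 1, Slc1a5. Its median distance from the wild-type mean was 0.87. Knockout 2 was below both wild-type arrays for 7 of the 18 (38.9%), against 26.6% of all genes. Its median distance was -0.15, beside -0.17 for wild type 2. On the shared slide, the median of knockout 1 minus wild type 2 was 1.22, beside 0.08 over all genes. The positive median of the genotype difference thus came from knockout 1. It stayed positive under other scalings and background correction, with 14 of 18 positive after quantile normalization, 13 after normexp and 10 without scaling.

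Among sugar carriers, Slc5a1 (SGLT1), the sodium-driven carrier that takes up glucose and galactose, stood at 0.64 in wild type 1 and 0.64 in wild type 2. In knockout 1 and 2 its levels were 2.24 and -0.04. The wild-type arrays matched closely while the knockout arrays lay on either side of them, and the difference of 0.46 (SE 0.70) was smaller than its error. Slc2a2 (GLUT2), which lets sugars out across the basolateral membrane, had 1.69 and 1.30 in wild type and 2.94 and 0.83 in knockout, a difference of 0.39 (SE 0.66). Its pattern was that of Slc5a1, with knockout 1 highest and knockout 2 lowest of the arrays. Slc2a5 (GLUT5), the fructose carrier of the brush border, spread less, with 4.02 and 3.57 in wild type and 4.40 and 3.61 in knockout (difference 0.21, SE 0.37). Here knockout 2 lay between the wild-type arrays.

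Slc5a4b (SGLT3b), of the glucose-sensing branch of the family, was high on knockout 1 alone. Its levels were -3.82 and -3.47 in wild type and -1.57 in knockout 1, and in knockout 2 it was measured at -4.72, not well above background. With that array at its lowest signal above background, the gap between the knockout arrays was 2.45. Its neighbour in sequence Slc5a4a had -0.42 and -1.83 in wild type and -0.18 and -1.11 in knockout, so the wild-type arrays lay further apart than the knockout ones. Slc5a11 (SMIT2), which takes up inositol, split the wild-type arrays as well, at 3.75 and 2.42, with both knockout arrays between them at 3.57 and 3.23. Slc5a9 (SGLT4), a carrier of mannose and other sugars, had 1.21 and 0.65 in wild type and 1.50 and 0.82 in knockout. Slc2a7 (GLUT7) was the sugar carrier of the brush border with a negative difference, -0.18 (SE 0.46), and its genotypes overlapped. Over these 7 carriers the median difference was 0.31, with 0 called.

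The peptide carriers differed from each other. Slc15a1 (PEPT1), the proton-driven carrier for most di- and tripeptides in the gut, had -1.24 and -0.22 in wild type and 0.58 and -2.03 in knockout. The knockout arrays enclosed the wild-type ones, and the difference was 0.01 (SE 0.84). Slc15a2 (PEPT2), a high-affinity peptide carrier best known from kidney and brain, was the member with the largest difference, though its wild-type level was measured on 1 of 2 arrays. Its level was -2.68 in wild type 2, -1.16 in knockout 1 and -2.16 in knockout 2, and in wild type 1 it was measured at -4.96, not well above background. Both knockout arrays were higher than both wild-type arrays. The difference was 2.16 (SE 0.79), a 4.47-fold higher signal, with limma's unadjusted p = 0.0332 and an adjusted p of 1.00 over all genes. With wild type 1 at that array's lowest signal above background the difference was 1.82 (3.54-fold). Without wild type 1 the difference was 1.02, since that array alone gave the low end, and knockout 1 lay 1.51 above wild type 2 on their shared slide.

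Some amino acid carriers of the brush border repeated the split of the knockout arrays. Slc3a1 (rBAT) is the heavy chain that, with the light chain Slc7a9, takes up cystine and dibasic amino acids. Its levels were 0.60 and 0.55 in wild type, 2.34 in knockout 1 and -0.40 in knockout 2. Slc7a9 had 3.76 and 3.46 in wild type and 4.79 and 2.93 in knockout. Both chains of the heterodimer were thus highest in knockout 1 and lowest in knockout 2, with differences of 0.40 (SE 0.82) and 0.25 (SE 0.60).

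Slc6a19 (B0AT1), the main sodium-driven carrier of neutral amino acids in the gut, had 1.20 and 1.32 in wild type and 2.60 and 0.03 in knockout. Again the wild-type arrays fell between the knockout arrays, and the difference was 0.06 (SE 0.78). Slc6a20a, a carrier of proline and other imino acids, had 1.53 and 0.72 in wild type and 1.92 and 1.06 in knockout, with knockout 2 between the wild-type arrays. Slc1a1 (EAAC1), which takes up glutamate and aspartate, was low only on wild type 2, at -1.85. The other 3 arrays had -0.59, -0.62 and -0.65, and the difference of 0.59 (SE 0.46) came from that array.

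Slc1a5 (ASCT2), a sodium-dependent exchanger of glutamine and other neutral amino acids, went the other way. It had 1.76 and 1.81 in wild type, 0.71 in knockout 1 and 1.81 in knockout 2, so that only knockout 1 was low. Slc36a1 (PAT1), a proton-driven carrier of small amino acids, had both knockout arrays above both wild-type arrays, at -1.09 and -1.38 against -1.57 and -1.46. A dimmer Slc36a1 probe differed by -0.12. The difference of the brighter one, 0.29 (SE 0.31), was within its error. Slc6a6 (TAUT), the taurine carrier, stayed within a narrow range, from 2.44 to 2.88 over the 4 arrays. Slc6a14 and Slc6a20b were not tested, since no probe of theirs was well above background on 2 arrays.

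**Figure D2:**
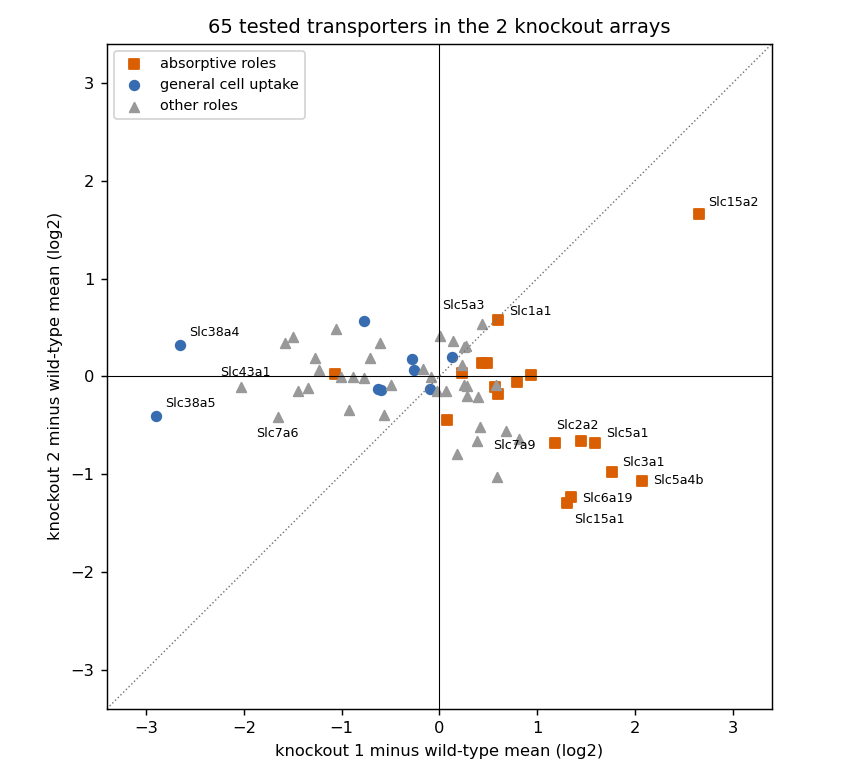
Distance of each knockout array from the wild-type mean (log2) for the 65 tested transporters, knockout 1 on the x axis and knockout 2 on the y axis; 1 point a gene, the dotted line marks equal distances. The absorptive members at the lower right were high in knockout 1 and low in knockout 2, the general carriers Slc38a5 and Slc38a4 lay far to the left, and Slc15a2 lay far above 0 on both axes.

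Carriers that pass amino acids on from the enterocyte were grouped with the other partners of the heavy chain Slc3a2 (CD98). Of 9 such members 7 were tested, with a median difference of 0.04 and 0 called. Their median gap between the knockout arrays was 0.61, beside 0.97 for the amino acid carriers of the brush border. Between the wild-type arrays it was 0.73, beside 0.21. Slc3a2 had 3.69 and 2.96 in wild type and 3.61 and 3.13 in knockout. Slc7a7 (y+LAT1), which exports dibasic amino acids to the blood as its partner, had 4.75 and 4.04 against 4.63 and 4.52. In both genes the knockout arrays lay between the wild-type arrays, and the differences of 0.04 (SE 0.36) and 0.17 (SE 0.35) were within the error. Slc7a8 (LAT2), another basolateral light chain, had 1.45 and 0.29 on the wild-type arrays and 1.14 and 1.17 in knockout, with a wider gap in wild type. Slc43a2 (LAT4), a carrier that lets out large neutral amino acids, had 3.10 and 2.32 in wild type and 3.11 and 2.50 in knockout.

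The related Slc43a1 (LAT3) stood out for its low signal on 1 array. It had -2.39 and -2.07 in wild type, -4.26 in knockout 1 and -2.34 in knockout 2, a difference of -1.07 (SE 0.65) that was 0.27 after normexp background correction. Knockout 2 lay between the wild-type arrays. Slc7a5 (LAT1), the light chain of proliferating cells that takes up large neutral amino acids, had -2.86 and -2.14 in wild type and -3.38 and -2.50 in knockout. Slc7a6 (y+LAT2) had -3.48 and -2.70 in wild type, -3.51 in knockout 2 and a signal of -4.74, not well above background, in knockout 1. Both knockout arrays of Slc7a6 were below both wild-type arrays, though knockout 2 by a small margin, with a difference of -1.04 (SE 0.57). With another background correction (normexp) that difference was 0.52.

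Carriers that feed cells in general moved opposite to the absorptive ones on knockout 1. Of 12 such members 9 were tested, and 8 had a negative difference, with a median of -0.11 and 0 called. Knockout 1 was below both wild-type arrays for 7 of the 9, against 34.4% of all genes, and above both for 0. Its median distance from the wild-type mean was -0.60, and that of knockout 2 was 0.06. The median stayed negative under each scaling and background correction tried. Slc38a5 (SNAT5), a carrier of glutamine, asparagine, histidine and serine, had the most negative difference of all members. Its levels were 0.74 and 1.54 in wild type and -1.76 and 0.74 in knockout. Knockout 1 was far below the other arrays, while knockout 2 was level with wild type 1, so the genotypes were barely apart. The difference was -1.65 (SE 0.79), a 3.14-fold lower signal, with limma's unadjusted p = 0.081.

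Slc38a4 (SNAT4), a carrier of small neutral amino acids best known from liver, had -3.01 and -2.98 in wild type and -2.68 in knockout 2. In knockout 1 it was measured at -5.65, not well above background, so that only this array was low (difference -1.16, SE 0.93, and 0.53 after normexp). Of 6 hepatocyte markers, 5, 2, 2 and 4 were above background on wild type 1 and 2 and knockout 1 and 2, and their summed signal, relative to the 75th percentile, was 10.9, 2.39, 0.736 and 3.12. The marker Fga was not above background on any array, and the part of such RNA in the result was not tested. Slc38a1 (SNAT1) had 3.09 and 3.31 in wild type and 2.61 and 3.07 in knockout, without overlap but with a difference of -0.37 (SE 0.30). Slc38a2 (SNAT2), which cells raise when amino acids run short, differed by -0.05 (SE 0.30) and overlapped.

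Slc2a1 (GLUT1), the glucose carrier of most cells, was the general carrier with a positive difference, 0.16 (SE 0.29). Its levels were 0.14 and 0.59 in wild type and 0.50 and 0.56 in knockout, with both knockout arrays inside the wild-type range. Slc2a4 (GLUT4), the insulin-responsive carrier of muscle and fat, had 1.30 and 1.48 in wild type, 0.62 in knockout 1 and 1.96 in knockout 2. Adipocyte markers had a median distance from the wild-type mean of -1.98 in knockout 1 and 1.55 in knockout 2, and smooth muscle markers of -0.94 and 0.69. Of the 4 adipocyte markers, 2, 3, 1 and 3 were above background on wild type 1 and 2 and knockout 1 and 2. Their -1.98 thus rests in part on values not well above background. For Slc2a4 too knockout 1 was lowest and knockout 2 highest, and the part of these cells in its values was not tested. Slc1a4 (ASCT1) and Slc7a1 (CAT1), carriers of neutral and of cationic amino acids, differed by -0.11 (SE 0.35) and -0.10 (SE 0.28).

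**Figure D3:**
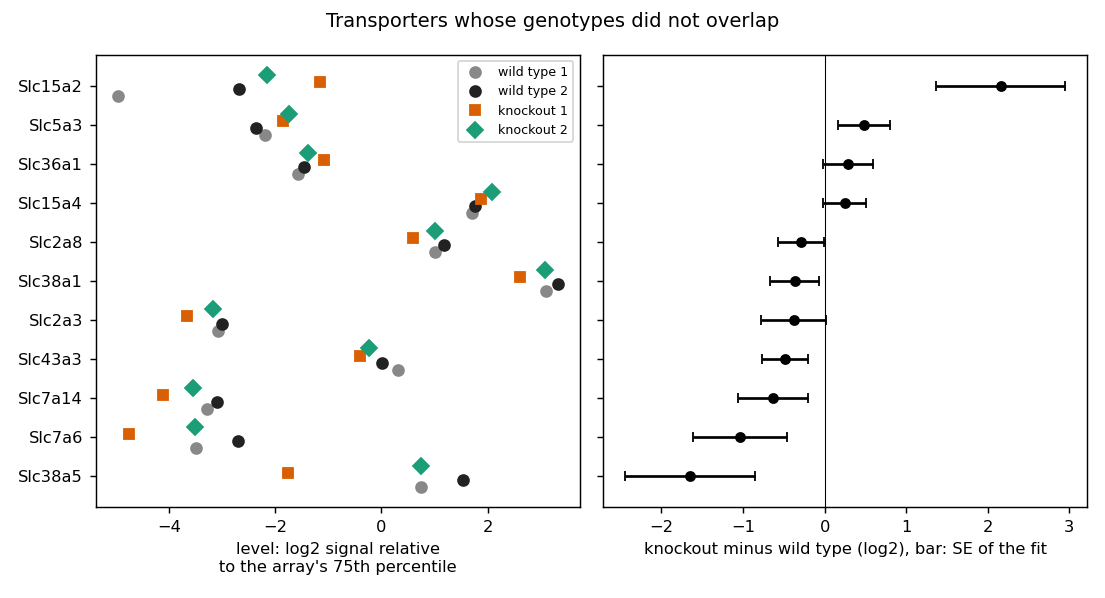
The 11 transporters whose genotypes did not overlap: level on each array (left, log2 signal relative to the array's 75th percentile, points set slightly apart in height) and fitted difference with its SE (right, log2). Slc15a2 lay highest at 2.16 and Slc38a5 lowest at -1.65, and most of the others differed by less than 1.

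Both knockout arrays were above both wild-type arrays for 4 members, Slc15a2, Slc5a3, Slc36a1 and Slc15a4, where 8.66% of all genes were so. Both were below for 7 members, Slc38a5, Slc7a6, Slc7a14, Slc43a3, Slc2a3, Slc38a1 and Slc2a8, where 6.09% of all genes were so. Slc5a3 (SMIT1), the sodium-driven inositol carrier, had -2.19 and -2.37 in wild type and -1.85 and -1.74 in knockout. Its replicates were close in both genotypes, and the difference was 0.49 (SE 0.32, unadjusted p = 0.179 in limma). Slc43a3, which carries purine bases, had 0.32 and 0.00 in wild type and -0.41 and -0.24 in knockout, a difference of -0.48 (SE 0.28). Slc2a3 (GLUT3), Slc2a8 (GLUT8) and Slc7a14 differed by -0.38 (SE 0.40), -0.29 (SE 0.29) and -0.63 (SE 0.43), and after normexp Slc2a3 and Slc7a14 differed by 0.69 and 0.66. Slc5a3, Slc43a3, Slc2a3 and Slc2a8 were singled out after their values were seen.

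Among the 8 carriers of lysosomes and other inner membranes, all tested, 6 had a negative difference, 2 after normexp background correction, and 0 were called. Slc15a4, a lysosomal carrier of histidine and peptides in immune cells, had 1.70 and 1.76 in wild type and 1.86 and 2.09 in knockout (difference 0.25, SE 0.26). The related Slc15a3 differed by -0.31 (SE 0.47) and was not well above background on knockout 2. Slc38a9, the lysosomal arginine sensor upstream of mTORC1, stayed between -0.97 and -0.72 on all arrays by its brightest probe, a difference of -0.05 (SE 0.29). Its dimmer probes disagreed, with differences of -0.56 and 0.75, the last from a probe above background on 1 array. Of 12 transmitter carriers 6 were tested, with a median difference of -0.09, which was 0.75 after normexp, and 0 called. Slc6a4 (SERT), which clears serotonin and is made by enterocytes as well as nerves, had -0.26 and -0.86 in wild type, 0.12 in knockout 1 and -1.12 in knockout 2. It thus had the split of some absorptive carriers, with a difference of 0.06 (SE 0.48).

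Of 6 carriers for vitamins, monocarboxylates, iodide, choline and inositol 3 were tested. Slc5a6 (SMVT), the sodium-driven biotin and pantothenate carrier, lay between 0.23 and 0.47 on the 4 arrays and differed by -0.09 (SE 0.27). Slc5a7, the choline carrier of cholinergic nerves, had -2.67 and -2.67 in wild type, -3.94 in knockout 1 and -2.48 in knockout 2. Only knockout 1 was low, and markers of enteric neurons and glia had a median distance of -0.68 in knockout 1 and -0.22 in knockout 2. Their summed signal was 96.2 and 64.5 on the wild-type arrays, 55.5 on knockout 1 and 123 on knockout 2. On knockout 2 the sum was thus highest though the median was negative. The part of nerve tissue in the Slc5a7 values was not tested. The remaining 14 tested members of 26 had a median difference of -0.34 (0.12 after normexp). Among them Slc6a8, the creatine carrier, had 5.18 and 4.97 in wild type and 5.46 and 4.42 in knockout. Slc6a8 differed by -0.14 (SE 0.42), with knockout 1 highest and knockout 2 lowest.

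Of the 25 members that had a probe but were not tested, 18 were well above background on no array and 7 on 1. Among them were the monocarboxylate carriers Slc5a8 and Slc5a12, the cystine carrier Slc7a11, the renal glucose carrier Slc5a2 and the thyroid iodide carrier Slc5a5. Of the tested members, 57 were above background on all 4 arrays. Slc2a12, Slc6a5 and Slc6a16 matched no probe.

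How far the members depended on 1 knockout array was measured by leaving each out, with the remaining array assumed to vary like the others. Without knockout 2, limma's test at an adjusted p under 0.05 took 6 members as higher, where 0.938% of all genes passed, and 3 as lower, where 2.07% passed. The 6 were Slc5a4b (2.07), Slc3a1 (1.76), Slc5a1 (1.60), Slc2a2 (1.45), Slc6a19 (1.34) and Slc15a2 (2.66). The 3 were Slc38a5 (-2.90), Slc43a1 (-2.03) and Slc38a4 (-2.65). Slc38a4 was not well above background on knockout 1, and with that array at its lowest signal above background its value was -1.84, with no test. For Slc15a2, with wild type 1 treated that way, the value was 2.32. Without knockout 1 it took 0 members, with 0.0139% of all genes higher and 0.0695% lower, and the differences of Slc5a1, Slc3a1, Slc2a2, Slc6a19 and Slc5a4b were then -0.68, -0.97, -0.67, -1.23 and -1.07, the last -0.37 with knockout 2 at its lowest signal above background. Those 5 genes thus had opposite signs against the same wild-type arrays depending on the knockout array kept. Slc15a2 kept its sign, at 2.66 and 1.66, as did Slc38a5, at -2.90 and -0.40.

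The genes that work beside the transporters were described from 5 lists, and limma's test called 0 genes in each. All 13 brush-border hydrolases had a positive difference, with a median of 0.34 and 0 under an unadjusted p of 0.05. With normexp background correction 4 of the 13 were positive and the median was -0.10. Their median distance from the wild-type mean was 1.02 in knockout 1 and -0.26 in knockout 2, beside -0.32 in wild type 2. Sis, the sucrase-isomaltase that frees glucose and fructose, had 3.23 and 2.52 in wild type and 4.39 and 2.85 in knockout (difference 0.74, SE 0.55). Lactase (Lct) and aminopeptidase N (Anpep) differed by 0.59 (SE 0.59) and 0.54 (SE 0.53), and both were below 0 after normexp. Knockout 1 was above both wild-type arrays for 12 of the 13, against 37.9% of all genes. Knockout 2 was below both for 6, against 26.6% of all genes, and lay between them for Sis, Lct and Anpep. On knockout 1 the enzymes that release sugars and amino acids thus lay on the same side as most of their carriers.

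Of 13 partner genes 10 were tested, and 6 had a positive difference (median 0.17, and -0.39 after normexp; 0.62 in knockout 1 against -0.13 in knockout 2). Slc9a3 (NHE3), the sodium-proton exchanger that sustains the proton gradient for peptide uptake, had 3.48 and 3.26 in wild type and 5.42 and 3.09 in knockout. Only knockout 1 was high, and the difference was 0.89 (SE 0.72). Slc16a10 (TAT1), which exports aromatic amino acids, differed by 0.56 (SE 0.57), and Kcne3, a subunit of a basolateral potassium channel, by -0.63 (SE 0.66). Of 13 genes of sugar metabolism 8 had a positive difference, with a median of 0.15 (-0.40 after normexp). Ketohexokinase (Khk), which starts fructose breakdown, differed by 0.35 (SE 0.42), Tkfc of the same pathway by 0.35 (SE 0.38), and hexokinase 2 (Hk2) by -0.35 (SE 0.37).

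Regulators of intestinal genes included 12 tested of 14, and 11 had a positive difference, with a median of 0.25 (-0.15 after normexp) and 0 called. Hnf4g, a nuclear receptor of the villus epithelium, had 1.33 and 0.64 in wild type and 2.55 and 0.81 in knockout. Only knockout 1 of Hnf4g was high, with a difference of 0.69 (SE 0.59). Cdx1, a homeobox factor of intestinal identity, differed by 0.49 (SE 0.35), and Pparg by 0.44 (SE 0.29), without overlap. After normexp their differences were -0.15 and -0.13. The amino acid response, which ATF4 drives when amino acids are short, had 7 of 14 differences positive and a median of -0.01. Chac1, a glutathione-degrading enzyme, had -3.58 and -2.69 in wild type and was not well above background in either knockout array. The knockout signal was 2.12-fold lower, taking on each knockout array the higher of Chac1's own signal and the lowest signal above background. That value is not a lower bound. On knockout 1, Chac1's own signal of -4.42 exceeded that lowest signal, -4.84, and still was not well above background. Chac1 passed the background filter through its wild-type arrays alone, its adjusted p was 1.00 and its difference after normexp was 0.62. Of the 5 lists it was the 1 gene with an unadjusted p under 0.05 in limma, and that p rests on knockout values that were not measured above background. Nupr1, a stress-induced chromatin protein, differed by -1.20 (SE 0.85) and was low only on knockout 1, and Psat1, of serine synthesis, differed by 0.40 (SE 0.33).

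**Figure D4:**
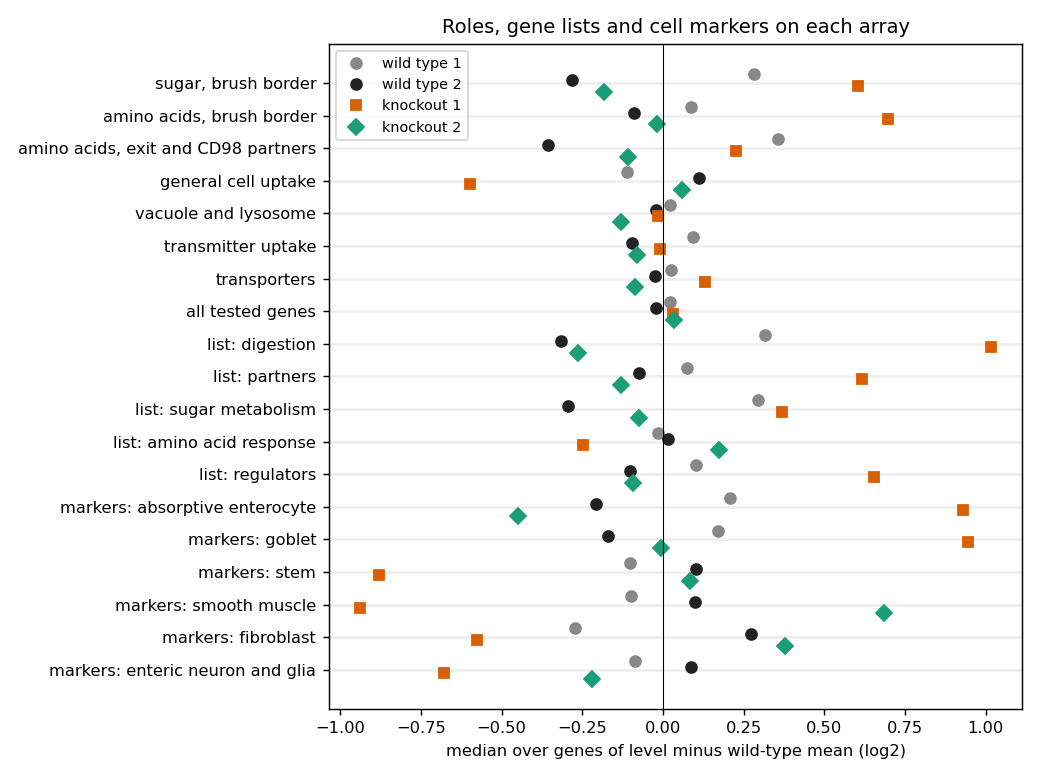
Median over genes of the level minus the wild-type mean (x axis, log2) on each array, for roles of the transporters, gene lists and cell type markers; 1 point an array, set slightly apart in height. Brush-border carriers, hydrolases and enterocyte markers lay to the right in knockout 1, while general uptake carriers, stem and smooth muscle markers lay to the left.

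Markers of the cells in the tissue differed between the knockout arrays too. All 9 markers of absorptive enterocytes were above background on every array. Summed relative to the 75th percentile, their signal came to 1229 on wild type 1, 895 on wild type 2, 1644 on knockout 1 and 867 on knockout 2. Their median distance from the wild-type mean was 0.93 in knockout 1 and -0.45 in knockout 2, with knockout 1 highest and knockout 2 lowest, as for Slc5a1, Slc2a2, Slc3a1, Slc7a9 and Slc6a19. Goblet cell markers had 0.95 and -0.00, stem cell markers -0.88 and 0.09, smooth muscle markers -0.94 and 0.69 and fibroblast markers -0.58 and 0.38. Summed smooth muscle signal came to 172 on wild type 1, 197 on wild type 2, 97.4 on knockout 1 and 298 on knockout 2. By summed signal, knockout 1 thus had more enterocyte and goblet cell signal and less muscle and fibroblast signal than the other arrays. Not every enterocyte marker followed: Fabp2 and Apoa1 were highest on wild type 1 and lowest on wild type 2. The 3 stem cell markers on the array went both ways: Lgr5 was highest on knockout 1, Ascl2 and Smoc2 lowest. The part of these cells in the transporter values was not tested. The pancreas markers Cpa1, Cela3b and Pnlip were not above background on any array. Markers of distal small intestine had median distances of 1.72 in knockout 1 and 0.54 in knockout 2, and those of proximal small intestine 0.31 and -0.26. The 3 distal markers disagreed. Slc10a2 was above background only on wild type 2 and knockout 1. Fabp6 was highest on wild type 1, and Cubn was highest on knockout 1 and lowest on knockout 2.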

How the data were processed

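RNA samples (4) of small intestine were hybridised to 1-colour Agilent arrays, per the labels. The submitters' processing notes name Agilent Feature Extraction 11.5.1.1 as the image software. Spot intensity was deposited with background subtracted and spatial trend removed, per the file headers, and without scaling between arrays. The authors' value table is in log2. Its columns correlated at 1.00 with the scaled log2 processed signal centred by probe (39408 probes), and their medians were 0.05 and -0.10 in the wild-type columns and -0.11 and 0.12 in the knockout ones. It keeps differences between arrays and no levels, so it served as an alternative.

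Control spots and 91 to 129 flagged spots per array were left out. Repeated spots were averaged on the log2 scale, and each array's 75th percentile was subtracted. RefSeq accessions of GRCm38.p6 gave a symbol to 28025 of 39429 probes. A probe entered if well above background on 2 or more arrays, and the brightest stood for its symbol. The test was limma 3.58.1 (lmFit, eBayes with trend, R 4.3.3), two-sided, with Benjamini-Hochberg adjustment over 14395 genes and a threshold of 0.05. The procedure was tested on simulated data. The transporters, their roles, the marker lists and the gene lists were chosen with earlier results of these data known. The rule for named genes took a core set of gut transporters, members without overlap and with a difference of at least 0.5, the 5 widest gaps between replicates of each genotype, members whose probes differ in sign, and the 3 of smallest p per list. Other members appear in groups or as examples of a role. Alternatives were normexp (offset 50, from median spot and background signals), quantile, median and no scaling, the authors' table, filters and probe rules, variance settings, a replicate block, leaving out each array, and the shared slide.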

Additional observations from a re-analysis of the deposited data

How the results depend on the processing

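With 2 arrays a genotype, no transporter kept a call across the alternatives. Over all genes 6 were called, 13 with normexp background correction, 15 without scaling, 0 with probes required above background on all 4 arrays, 32 with a replicate block (6 higher and 26 lower), and 0 to 433 when 1 array was left out. The count of transporters called was 0, 2 with the replicate block (Slc15a2 and Slc38a5, adjusted p 0.0406 and 0.0186), and 0 to 9 without 1 array. Deviations of same-numbered arrays from their genotype means correlated at 0.0506. With 2 arrays a genotype both pairs give the same value by construction, so it cannot decide whether samples were paired. The numbers are not taken to pair the samples. The transporter median of -0.05 was 0.18 with normexp, -0.30 without scaling and -0.18 to 0.13 without 1 array. Members without overlap were 11, 17 with normexp, 17 without scaling and 25 to 51 without 1 array, where fewer arrays have to lie apart. Without 1 array, calls ranged from 0 to 4 in the list of hydrolases, 0 to 2 in that of partners, 0 to 1 in that of the amino acid response and 0 to 1 in that of regulators. Without scaling the median of all genes shifted by -0.25, and differences are read relative to it. Signs changed for 5 of the 65 members with quantile normalization, 5 with median scaling, 17 without scaling and 31 with normexp; the cause was not tested.

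The named genes that reversed had these differences. With normexp they were Slc2a5 -0.42, Slc2a1 -0.074, Slc2a7 0.48, Slc5a11 -0.34, Slc6a6 -0.41, Slc7a9 -0.37, Slc3a2 -0.56, Slc7a7 -0.43, Slc7a8 -0.047, Slc7a5 0.58, Slc43a2 -0.42, Slc43a1 0.27, Slc38a9 0.12, Slc15a3 0.82, Slc15a4 -0.35, Slc7a6 0.52, Slc7a14 0.66, Slc38a4 0.53, Anpep -0.096, Lct -0.031, Tkfc -0.24, Khk -0.30, Chac1 0.62, Pparg -0.13, Cdx1 -0.15 and Slc2a3 0.69. Without scaling they were Slc2a5 -0.042, Slc2a1 -0.090, Slc5a9 -0.021, Slc15a1 -0.25, Slc6a19 -0.20, Slc6a6 -0.12, Slc7a9 -0.0045, Slc3a2 -0.21, Slc7a7 -0.078, Slc43a2 -0.16, Slc15a4 -0.0060 and Slc6a4 -0.19. With quantile normalization they were Slc15a1 -0.0039, Slc6a19 -0.024 and Slc3a2 -0.043, and with median scaling Slc38a2 0.011 and Slc38a9 0.013. On the shared slide, knockout 1 minus wild type 2 was Slc2a1 -0.094, Slc2a7 0.62, Slc6a8 0.49, Slc15a3 0.40 and Slc5a6 0.062. Over the 4 fits that leave out 1 array, the genes that reversed ranged as follows: Slc2a1 -0.063 to 0.39, Slc2a7 -0.73 to 0.36, Slc15a1 -1.30 to 1.31, Slc6a19 -1.23 to 1.34, Slc38a9 -0.17 to 0.075, Slc2a5 -0.18 to 0.60, Slc5a4a -0.23 to 1.18, Slc5a9 -0.11 to 0.57, Slc5a11 -0.36 to 0.98, Slc6a20a -0.061 to 0.80, Slc6a6 -0.070 to 0.34, Slc3a2 -0.33 to 0.40, Slc7a7 -0.18 to 0.53, Slc7a8 -0.29 to 0.87, Slc43a2 -0.30 to 0.48, Slc1a1 -0.042 to 1.22, Slc1a4 -0.53 to 0.31, Slc38a2 -0.28 to 0.18, Slc6a4 -0.56 to 0.68, Anpep -0.10 to 1.19, Hk2 -0.71 to 0.0069, Tkfc -0.043 to 0.75, Khk -0.12 to 0.82, Slc5a1 -0.68 to 1.60, Slc2a2 -0.67 to 1.45, Slc5a4b -1.07 to 2.07, Slc3a1 -0.97 to 1.76, Slc7a9 -0.68 to 1.18, Slc1a5 -1.07 to 0.026, Slc38a4 -2.65 to 0.32, Sis -0.028 to 1.51, Lct -0.17 to 1.35, Slc9a3 -0.28 to 2.06, Slc16a10 -0.21 to 1.34, Kcne3 -1.60 to 0.35, Nupr1 -2.59 to 0.19, Hnf4g -0.18 to 1.56, Slc6a8 -0.66 to 0.38, Slc15a3 -0.79 to 0.18. The authors' value table, the mean of probes, no filter, no intensity trend, robust variance and the brightest of all probes (chosen after seeing the data) reversed none of the 57 named genes. A slide block could not be fitted, with 1 shared slide. Signals near background limit Slc15a2, Slc5a4b, Slc38a4 and Slc7a6; setting such values to the array's lowest signal above background (chosen after seeing the data) reversed none of the named genes.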
